A study of Mus musculus with 36 samples.

Results

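The 10 genes described here encode neuropeptide precursors: Sst, Tac1, Penk, Npy, Cck, Pdyn, Cartpt, Adcyap1, Nts and Pnoc. They were taken by name from an expression table of 55359 genes, and all 10 were found. Their values are given in all 36 mouse neurons of the study, which come from the superior colliculus and the neighbouring midbrain. Each library holds 1 neuron. The neurons belong to 18 clones of 2 sequenced cells each, a clone being the descendants of 1 progenitor that was tagged at embryonic day 12 with MADM, in which recombination between chromosomes gives daughter cells different fluorescent colours. Cells are named by clone letter and cell number, as in the labels (A.1 and A.2 are siblings). By tissue label, 22 cells came from sSC, 12 from dSC and 2 from PAG, read here as superficial and deep superior colliculus and periaqueductal grey. The groups are 15 Fz10-CreER and 7 Sox2-CreER cells in sSC, 7 Fz10-CreER and 5 Sox2-CreER cells in dSC, and 2 Sox2-CreER cells in PAG. The driver decides which progenitors were labelled, so each group holds descendants of progenitors that expressed that CreER. All cells carry the genotype part written M11GTTG and come from mice of a mixed C57/Bl6, FVB and CD1 background. The age of the animals at collection and the animal of each clone are not given in the labels.

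Neuropeptides are made as long precursors that travel into dense-core vesicles, where convertases and a carboxypeptidase trim them to active peptides. A neuron usually releases them beside a fast transmitter, and they act on G protein-coupled receptors more slowly and over a wider range. In the colliculus, peptides such as somatostatin and substance P are used as markers of neuron classes within the layers. The fast transmitter of a cell is read here from Slc17a6, which encodes the transporter that loads glutamate into vesicles in most midbrain excitatory neurons, and from Gad1 and Gad2, which encode the GABA-synthesising enzymes.

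Values are an expression signal, called TPM of exon plus intron by the authors. A TPM is scaled by gene length, but the formula of this combined signal is not stated. The signal sums to 2000000 in each cell, so the depth of a library is unknown and a value of 0 can be a failed capture. Between 2661 and 16769 genes per cell (median 12058) had a value of at least 1. The lowest, in cell B.2, stands apart, with the next cell at 6180. The neuronal label held, since Snap25, a protein of synaptic vesicle fusion, was at 100 or more in 36 of 36 cells. Transcripts of other cell types were present as well. Over the 36 cells the summed level of 14 microglia markers ran from 85.4 to 15867, of 10 oligodendrocyte markers from 1149 to 28455, of 10 astrocyte markers from 130 to 2852, of 8 vascular markers from 0 to 1211 and of 5 red blood cell markers from 0 to 9623. Among the defining markers, Itgam was at 0 in 24 cells, Sox10 in 23, Aldh1l1 in 20, Cdh5 in 31 and Alas2 in 30.

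The start of a peptide gene often carries a cyclic AMP response element (CRE), the site bound by the activity-regulated factor CREB. Somatostatin's is the classic example. RefSeq promoter entries (build GRCm38.p6) were found for 8 of the 10 genes, and the 250 bases before each annotated start were searched on both strands for TGACGTCA and for its core TGACG, which every TGACGTCA also holds. The windows of Sst and Cartpt are shown because they hold the full element, and the first Adcyap1 start because it holds the core alone and the gene stands apart from Sst in the transmitter results. Each runs 5′ to 3′ on the gene's strand, with the match in capitals. The Sst window is chr16:23890845-23891094 on the minus strand, the Cartpt window chr13:99900684-99900933 on the minus strand, and the Adcyap1 window chr17:93198767-93199016 on the plus strand.
Sst: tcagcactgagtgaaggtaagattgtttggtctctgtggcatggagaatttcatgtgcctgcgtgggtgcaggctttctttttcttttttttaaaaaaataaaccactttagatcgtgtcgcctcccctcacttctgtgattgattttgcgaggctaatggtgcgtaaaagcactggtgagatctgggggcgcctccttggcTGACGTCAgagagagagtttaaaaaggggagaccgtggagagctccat
Cartpt: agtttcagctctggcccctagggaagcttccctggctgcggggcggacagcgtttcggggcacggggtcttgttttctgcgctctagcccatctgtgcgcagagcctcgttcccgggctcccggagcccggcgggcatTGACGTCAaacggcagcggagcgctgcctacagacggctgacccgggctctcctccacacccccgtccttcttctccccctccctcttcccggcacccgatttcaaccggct
Adcyap1: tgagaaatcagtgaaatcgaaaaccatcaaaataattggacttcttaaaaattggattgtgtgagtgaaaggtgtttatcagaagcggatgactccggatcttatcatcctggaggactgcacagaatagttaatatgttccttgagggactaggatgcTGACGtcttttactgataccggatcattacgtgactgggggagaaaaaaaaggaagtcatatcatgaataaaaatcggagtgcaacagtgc
The full element begins 48 bases before the start in Sst and 112 bases before it in Cartpt. It was found in 2 of the 8 genes, against 1.55% of 32851 promoter windows of the same length, and the core in 6 of 8 against 17.8%. Adcyap1 and Pdyn have 2 windows each, and a gene was counted if any window held a match, whereas the percentages count single windows. The matches are of letters and say nothing of binding in these cells.

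Sst, the precursor of the inhibitory peptide somatostatin, was the most widespread of the 10. Its level reached 100 or more in 28 of 36 cells and spanned 0 to 7033 (median 463). It was the highest of the 10 genes in 20 cells, among them 14 of 22 in sSC, 5 of 12 in dSC and 1 of 2 in PAG. The top values were 7033 in D.2 (PAG), 6896 and 3776 in the siblings S.1 and S.2 (both sSC), 5640 in L.2 (dSC) and 3399 in B.2 (sSC). The gene was listed at 0 in A.1, J.1 and N.2. The exact formula of the signal is not given in the sources used here, so the order of genes within a cell holds only as far as the signal is scaled by gene length. On that scale Sst was above Cck in 26 of 36 cells and above Tac1 in 26, so the lead over each of them did not hold in every neuron.

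Cck and Tac1 followed. Cck, the cholecystokinin precursor, had a median of 96.1 (0 to 1899) and reached 100 or more in 18 cells. H.1 had 1899 and L.2 had 1057. Tac1, the precursor of substance P and neurokinin A, had a median of 64.3 (0 to 3750) and reached 100 or more in 15 cells. Its highest values were 3750 in H.2 (PAG), 2254 in C.2 and 1507 in I.2 (both sSC), and it was listed at 0 in 10 cells. The ranges of Sst, Cck and Tac1 overlap from 0 to 1899, and this order of medians did not hold in every cell.

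Penk, the enkephalin precursor, had a median of 29.6 (0 to 419) and reached 100 or more in 10 cells. It overlaps A830012C17Rik on the opposite strand, which was at 1 or more in 10 cells and no higher than 23.4. Cartpt, which encodes the CART peptide, had a median of 14.2 (0 to 725) with 9 cells at 100 or more. Npy, the neuropeptide Y precursor, was listed at 0 in 20 cells and was at 10 or more in all 16 others, 8 of them at 100 or more (highest 369). No cell had a level between 0 and 10.

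Pnoc, the precursor of nociceptin, had a median of 4.19 and was at 1 or more in 20 cells, but reached 100 in 4. These were D.2 (379, PAG), O.2 (356, dSC), B.1 (129, dSC) and J.2 (109, sSC). Adcyap1, which encodes PACAP, was at 1 or more in 16 cells and reached 100 in Q.2 alone (139, dSC). Pdyn, the dynorphin precursor, was detected at 1 or above in 7 cells and peaked at 59.0. Nts, the neurotensin precursor, was detected in 4 cells and peaked at 51.9. The ranges of Pnoc, Adcyap1, Pdyn and Nts overlap, since each was listed at 0 in 16 or more cells.

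**Figure D1:**
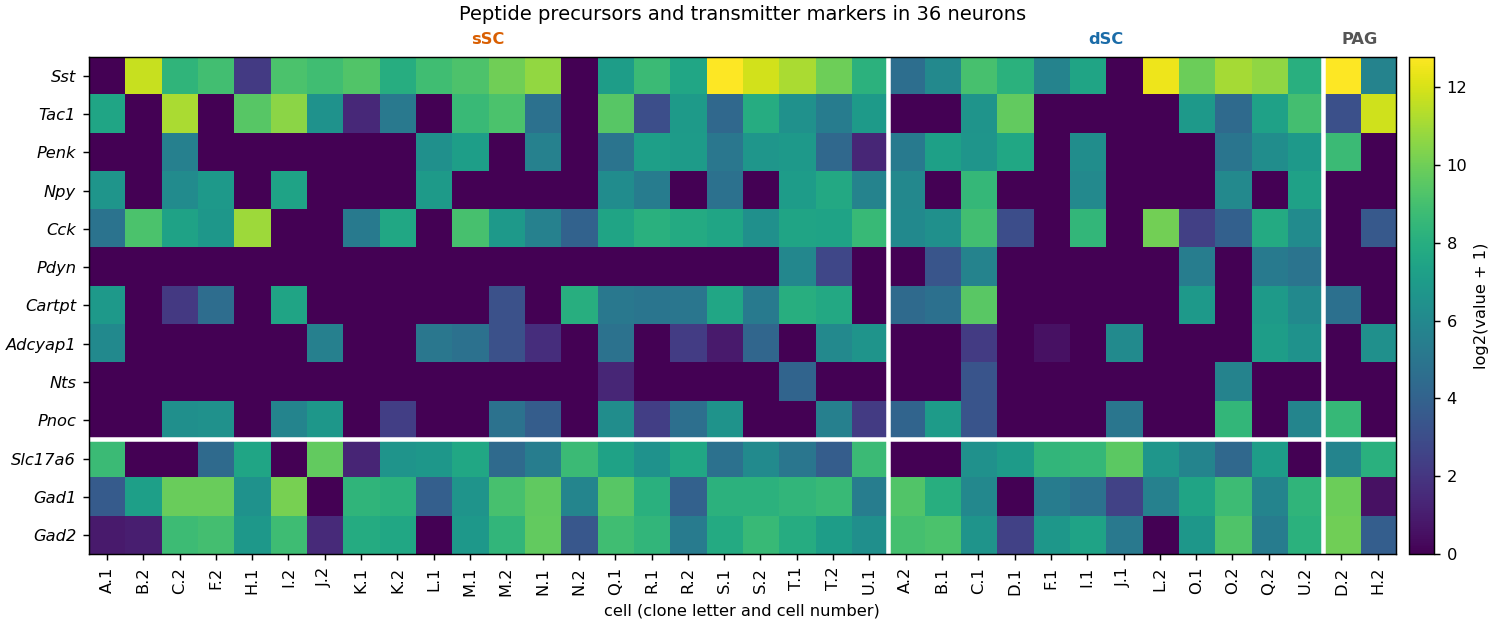
Signal of the 10 peptide precursors (rows above the white line) and of Slc17a6, Gad1 and Gad2 in each of 36 neurons, as log2(value + 1). Cells run along the x axis by tissue and clone. Sst is bright across most columns, Nts is dark in all but 4 and Pdyn in all but 7.

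Most neurons held several precursors. At a value of 100 or more, a cell had 2.58 ± 1.34 of the 10 genes (SD, n = 36 cells), and 20 cells had 3 or more. At a value of 1 or more the number was 5.36 ± 2.24. All 10 were at 1 or more in C.1 (dSC), where Cartpt had 725, Sst 541, Cck 485 and Npy 369. The other extreme was F.1 (dSC), in which Sst at 52.2 was the only gene at 1 or more. No gene reached 100 in A.2, F.1 and J.1, all from dSC. In J.1 Adcyap1 had 69.5 and Pnoc 30.9, the other 8 were listed at 0, and Slc17a6 had 763.

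Certain precursors were found together. All 7 cells with Pdyn at 1 or more had Cartpt at 1 or more, which is 7 of the 20 cells with Cartpt. Pdyn and Cartpt had 52.4 and 725 in C.1, 59.0 and 258 in T.1, 5.66 and 211 in T.2, 41.7 and 120 in O.1. They had 37.6 and 124 in Q.2, 29.2 and 66.0 in U.2, and 9.29 and 25.5 in B.1. Spearman's rho of this pair was 0.585 over the 36 cells, the highest of all pairs among the 10 genes. Npy and Cartpt were both at 1 or more in 12 cells, which is 12 of 16 cells with Npy and 12 of 20 with Cartpt (rho 0.439). All 4 cells with Nts at 1 or more had Npy, at 369 in C.1, 63.5 in O.2, 73.9 in Q.1 and 135 in T.1 (rho 0.445). Sst and Cck were both at 100 or more in 17 cells, which is 17 of 28 for Sst and 17 of 18 for Cck, yet their rho was 0.150. Pnoc and Cck were both at 100 or more in 0 cells, and Pnoc and Tac1 likewise, with Pnoc at that level in 4 cells only. These rho values are descriptions over cells that share clones and differ in the number of genes captured. The pairs were picked from these same values, and the share of all genes with such a rho was not computed.

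The fast transmitter of the cell went with some precursors and not with others. Taking 100 as the limit, Gad1 or Gad2 without Slc17a6 was found in 19 cells and Slc17a6 without either Gad gene in 11, while 5 passed it for both and C.1 for neither. Sst reached 100 or more in 17 of the 19 Gad cells and in 7 of the 11 Slc17a6 cells, with medians of 945 and 288. Its 3 cells at 0 were J.1, A.1 and N.2, whose Slc17a6 values of 763, 425 and 424 rank 2 to 4 of the 36 cells. The cell with the highest Slc17a6, J.2 at 850, had Sst at 470, so a high Slc17a6 did not always go with a missing Sst.

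Over the 36 cells, Sst had a Spearman's rho of -0.45 with Slc17a6, 0.42 with Gad1 and 0.22 with Gad2. For comparison, the middle 90% of 14901 genes lay between -0.23 and 0.34 with Slc17a6 and between -0.24 and 0.33 with Gad1, and 1.72% of genes had a higher rho with Gad1 than Sst. With Gad2, 23.98% did. In the 22 sSC cells alone the values for Sst were -0.62 and 0.40, and in the 12 dSC cells they were -0.13 and 0.13. The relation of Sst to the transmitter markers was thus weak among dSC cells. Pearson's r of log2 values over the 36 cells was -0.30 with Slc17a6 and 0.37 with Gad1. Sst also had a rho of 0.455 with the summed vascular markers and 0.337 with the oligodendrocyte markers, whose part in the result was not tested.

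By rho, Pnoc had the closest relation to the GABA markers. It was at 1 or more in 14 of 19 Gad cells and in 4 of 11 Slc17a6 cells, with medians of 26.8 and 0. Its rho was 0.51 with Gad1, 0.59 with Gad2, 0.50 with Slc32a1, the vesicular GABA transporter, and -0.38 with Slc17a6. Of the genes compared, 0.564% had a higher rho with Gad1 and 0.215% with Gad2. The exception among its highest cells was J.2, with Pnoc at 109, Gad1 at 0 and Slc17a6 at 850. With Gad1, rho was 0.43 in sSC cells and 0.61 in dSC cells. Pearson's r of log2 values with Gad1 was 0.39 for Pnoc, near the 0.37 of Sst and the 0.35 of Cartpt. Pnoc also had a rho of 0.565 with the summed processing and dense-core vesicle genes, 0.387 with the pan-neuronal markers and -0.404 with the microglia markers, and the part of these was not tested.

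Adcyap1 stood on the other side. It was at 1 or more in 8 of the 11 Slc17a6 cells and in 5 of the 19 Gad cells, with medians of 46.6 and 0. Its rho was 0.41 with Slc17a6, -0.37 with Gad1 and -0.41 with Slc32a1, and 2.06% of genes had a higher rho with Slc17a6. The highest values were 139 in Q.2, 98.7 in U.1, 91.7 in U.2 and 83.8 in H.2. Slc17a6 had 137, 421 and 278 in Q.2, U.1 and H.2, whereas U.2 had Slc17a6 at 0 and Gad1 at 322. The rho with Slc17a6 was 0.49 in sSC cells and 0.26 in dSC cells. Pearson's r of log2 values over the 36 cells was 0.35 with Slc17a6 and -0.39 with Gad1. Adcyap1 had a rho of 0.326 with the number of genes captured, and Slc17a6 had 0.0717.

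By rho and by cells at 1 or more, Npy and Cartpt leaned the same way as Sst, less far. Npy had a rho of -0.30 with Slc17a6 and 0.33 with Gad1, and was at 1 or more in 10 of 19 Gad cells and 3 of 11 Slc17a6 cells. Cartpt had -0.24 and 0.31, with 14 of 19 and 4 of 11 cells. Tac1 showed no such lean. Its rho was 0.03 with Slc17a6 and 0.06 with Gad1, and it reached 100 or more in 6 of 19 Gad cells and 6 of 11 Slc17a6 cells. Its 2 highest cells lie at opposite ends, H.2 with Slc17a6 at 278 and Gad1 at 0.507, and C.2 with Slc17a6 at 0 and Gad1 at 938. Cck had -0.03 and 0.02, though Pearson's r of its log2 values with Gad1 was 0.28. Penk had -0.17 and 0.09, and 0.30 with Gad2, which 12.5% of genes exceeded. Pdyn had -0.27 and 0.06, and Nts had -0.09 and 0.21, on 7 and 4 cells above 1.

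**Figure D2:**
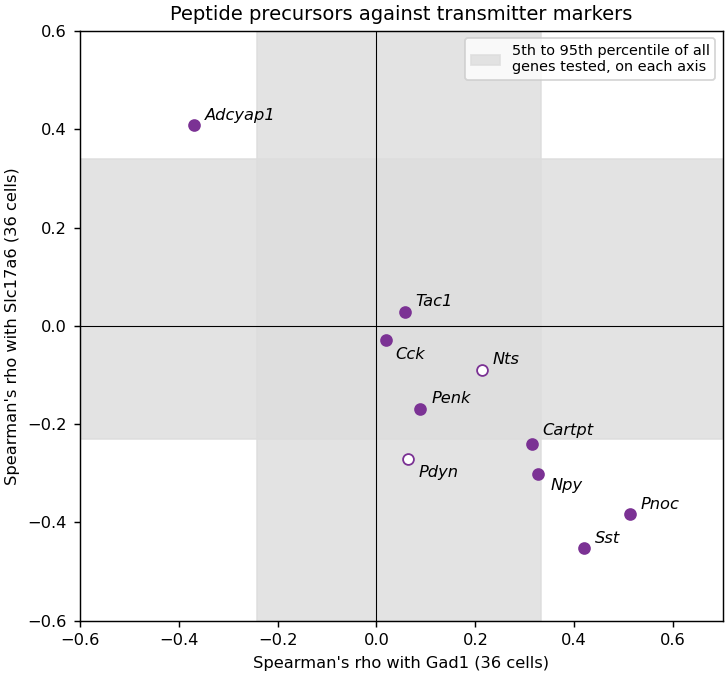
Spearman's rho of each precursor with Gad1 (x axis) and with Slc17a6 (y axis) over 36 cells. Filled points are genes that reached 1 in 25% or more of the cells, open points Pdyn and Nts, and grey bands hold the middle 90% of 14901 genes on each axis. Adcyap1 lies at the upper left, and Sst and Pnoc at the lower right.

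**Figure D3:**
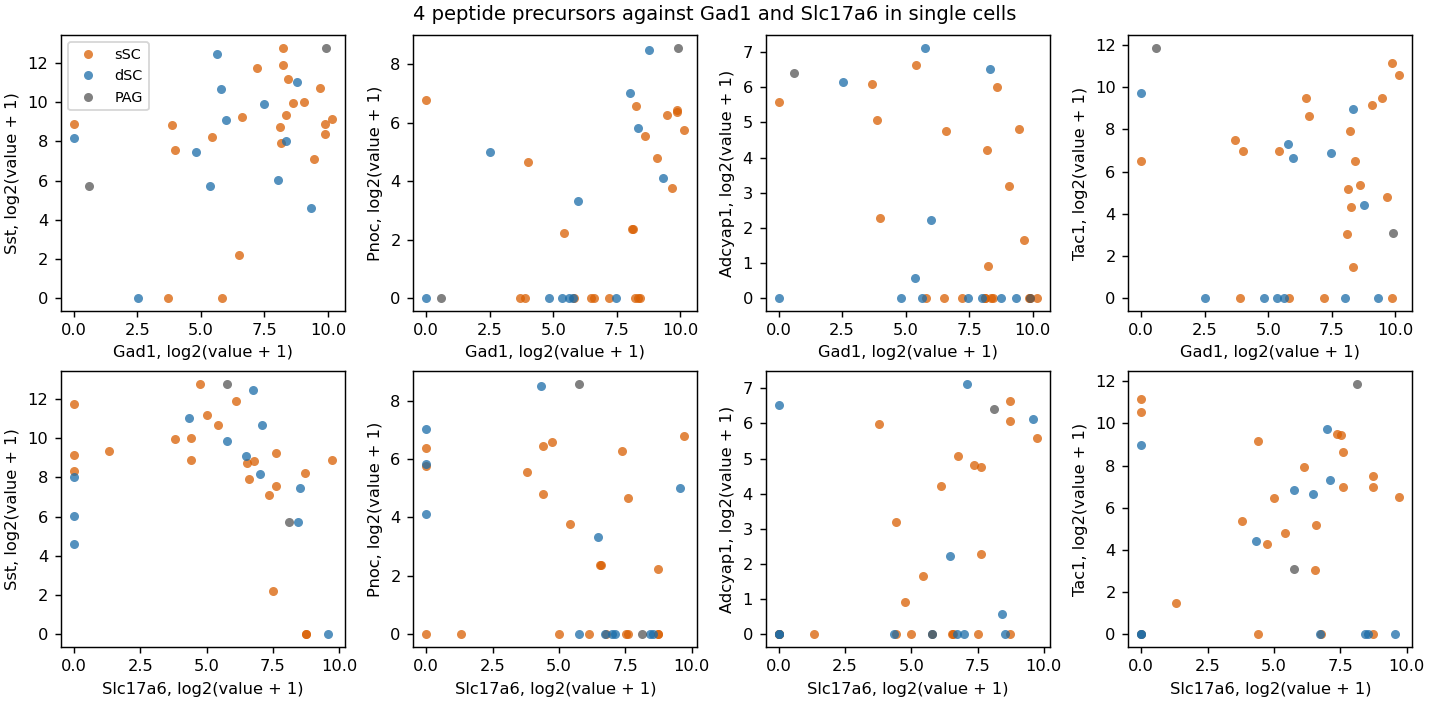
Sst, Pnoc, Adcyap1 and Tac1 (columns) against Gad1 (upper row) and Slc17a6 (lower row) in single cells, as log2(value + 1), coloured by tissue. The 3 cells with Sst at 0 have Slc17a6 of 424 or more, and Tac1 is spread over the whole range of both markers.

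Siblings can show whether precursor levels are alike within clones. The 2 cells of a clone also share an animal and a driver, so an effect of the clone cannot be told apart from these here. The test asked whether the 2 cells of a clone were closer than cells of different clones, in the 16 clones with both cells in sSC or dSC and with tissue as a covariate. None of the 8 precursors that passed the filter on low values (1 or more in 25% of cells) was called at an adjusted p of 0.05, against 0.0198% of all 15132 genes (limma's moderated F test, Benjamini-Hochberg adjustment). At an unadjusted p under 0.05 there were 3, namely Tac1, Npy and Adcyap1, where 7.8% of all genes had such a p. Pdyn and Nts fell below the filter. Fitted without it, their sibling correlations were 0.158 and -0.146 (limma F test, adjusted p = 0.861 and 0.865).

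For Tac1 the intraclass correlation of siblings was 0.463 (limma F test, p = 0.00512, adjusted p = 0.478), against a median of 0.0448 over all genes. Both siblings were at 100 or more in 4 clones, with 3750 and 708 in H (outside the test, since 1 cell is from PAG), 714 and 160 in Q, 574 and 400 in M, and 495 and 124 in U. Both were listed at 0 in clones B, F and L. Clone I split, with 1507 in one cell and 0 in the other. The clones thus include shared presence, shared absence and splits.

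Npy had an intraclass correlation of 0.403 (limma F test, p = 0.00803, adjusted p = 0.478). Both siblings were at 1 or more in 5 clones, with 369 and 71.2 in C, 211 and 135 in T, 170 and 62.9 in I, 159 and 51.0 in U, and 102 and 62.6 in A. Neither was in 7 clones, and in 6 clones 1 cell was. Adcyap1 had 0.449 (p = 0.0232, adjusted p = 0.566). Both siblings were at 1 or more in 4 clones, with 98.7 and 91.7 in U, 139 and 27.3 in Q, 69.5 and 46.6 in J, and 26.3 and 8.09 in M. In the same test, 4 of 4 red blood cell markers, 4 of 10 oligodendrocyte markers and 2 of 14 microglia markers had an unadjusted p under 0.05, none with an adjusted p under 0.05. The median sibling correlation was 0.503 for the red blood cell, 0.203 for the oligodendrocyte and -0.0084 for the microglia markers. Their part in the values of the precursors was not tested.

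The other 5 had sibling correlations of 0.161 for Sst, 0.0899 for Cck, 0.0764 for Penk, 0.0733 for Cartpt and -0.519 for Pnoc (limma F test, adjusted p from 0.665 to 0.978). This F test can call only siblings that are closer than other cells, so it could not call the negative value of Pnoc. Pnoc was at 1 or more in both siblings in 4 clones, in 1 sibling in 12 and in neither in 2. In clone D the PAG cell had 379 and the dSC cell 0, and in clone O the cells had 356 and 0. Sst was at 100 or more in both siblings in 12 clones, yet split widely in N (1664 and 0) and J (470 and 0).

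**Figure D4:**
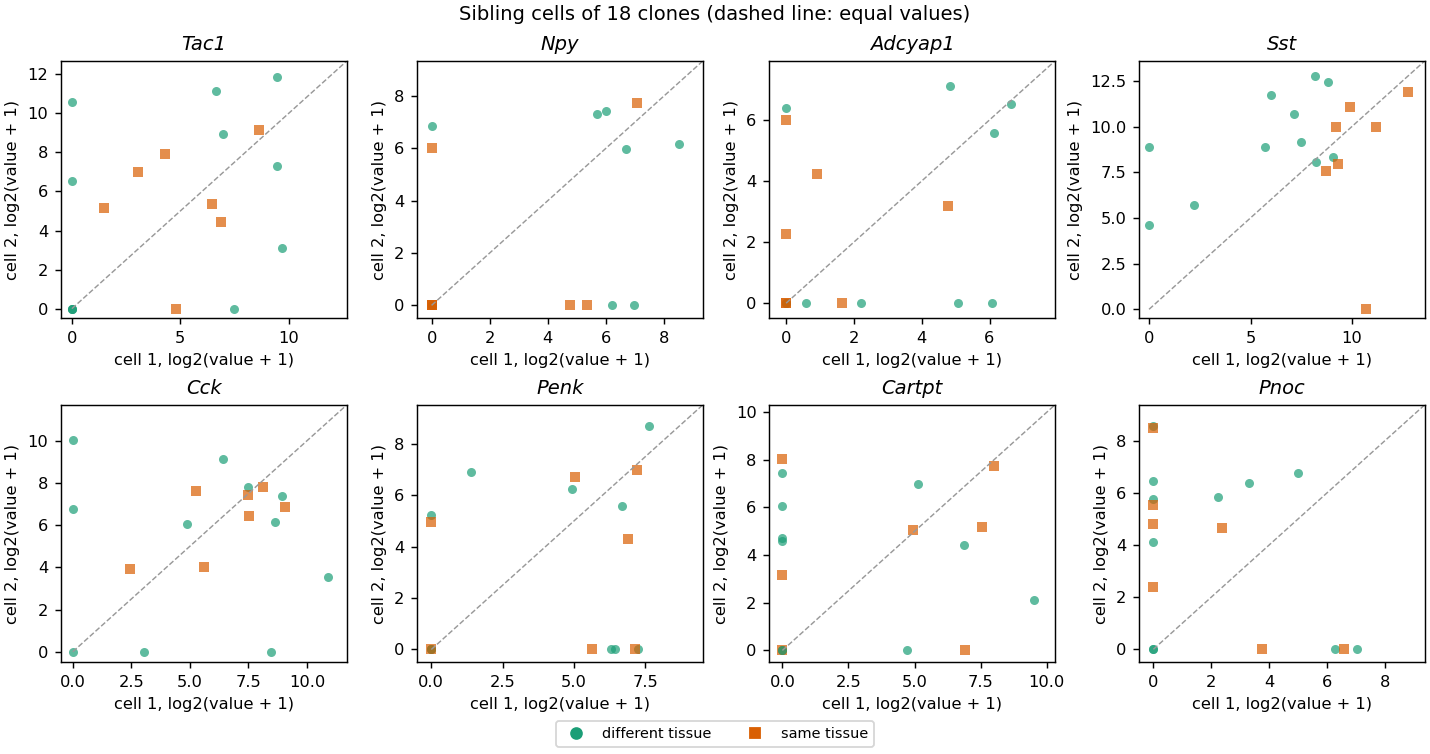
Level of 8 precursors in cell 1 (x axis) and cell 2 (y axis) of each of 18 clones, as log2(value + 1). Circles are clones with cells in different tissues and squares clones with both cells in 1 tissue. Pnoc points lie along the axes in 12 clones, where 1 sibling is below 1.

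The next comparison set sSC against dSC, with the clone mean in each tissue as the replicate (16 and 11 means). Of the clones, 9 gave a mean to both tissues, and this fit left that pairing out. Fits with a clone block are given below. None of the 8 tested precursors was called, where 0% of 14613 genes passed an adjusted p of 0.05 and 5.16% had an unadjusted p under 0.05. None of the 8 had an unadjusted p under 0.05 in this unpaired fit. Of the 8, 6 were higher and 2 lower in sSC, with a median log2 difference of 0.45 against -0.31 over all genes.

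The largest difference was in Tac1. Single sSC cells had Tac1 from 0 to 2254 with a median of 89.5, and dSC cells from 0 to 837 with a median of 10.2. It was listed at 0 in 4 of 22 sSC cells and 6 of 12 dSC cells. Clone means on the log2 scale averaged 5.83 ± 3.76 for sSC (SD, n = 16 clones) against 3.48 ± 4.13 for dSC (SD, n = 11 clones), a difference of 2.35 (SE 1.34, limma adjusted p = 0.971), so the spread of each tissue exceeds the difference. In the 9 clones that span both tissues, sSC and dSC siblings had 2254 and 98.1 in C, 1507 and 0 in I, 714 and 160 in Q, 179 and 0 in A, and 90.6 and 0 in J. Clone U had the opposite order, with 124 in sSC and 495 in dSC, and in B, F and L both were at 0. Fitted with a clone block, Tac1 differed by 3.25 (SE 1.21, limma p = 0.0154, adjusted p = 0.494), with a median of -0.67 over all genes in that fit.

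Penk had the opposite order. Single sSC cells spanned 0 to 147 (median 10.2) and dSC cells 0 to 197 (median 56.1). Clone means averaged 2.71 ± 2.81 for sSC (SD, n = 16 clones) against 4.43 ± 3.16 for dSC (SD, n = 11 clones), a log2 difference of -1.73 (SE 1.06, limma adjusted p = 0.971). Within clones, sSC and dSC siblings had 0 and 152 in B, 1.61 and 120 in U, 46.7 and 102 in C, 0 and 77.2 in I, 29.2 and 75.7 in Q, and 0 and 36.5 in A. Clone L had 85.4 in sSC and 0 in dSC, and F and J were at 0 in both cells. Pdyn, below the filter, reached 1 in 2 of 22 sSC cells, both of clone T, and in 5 of 12 dSC cells, of clones B, C, O, Q and U. Fitted without the filter, it differed by -1.73 (SE 0.67, limma p = 0.0147, adjusted p = 0.799), the smallest unadjusted p of the 10 genes between tissues in that fit.

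Like Tac1 and Penk, the other 6 differed by less between tissues than the clones did among themselves. The log2 differences were 0.85 for Npy (SE 1.18), 0.58 for Cck (SE 1.17), 0.48 for Sst (SE 1.11), 0.43 for Adcyap1 (SE 0.99), 0.37 for Pnoc (SE 0.97) and -0.01 for Cartpt (SE 1.13), with adjusted p from 0.979 to 0.999. With the clone block in the 9 clones that span both tissues, they were 2.02 for Npy (SE 1.11, limma p = 0.0868, adjusted p = 0.596), -1.07 for Cck, 0.79 for Sst, 0.62 for Adcyap1, 0.95 for Pnoc and -0.62 for Cartpt. Npy was higher in the sSC cell in 5 of these clones, lower in 2 and equal in 2, and Cck has opposite signs between the fits. Single sSC cells had Sst from 0 to 6896 (median 473) and dSC cells from 0 to 5640 (median 275). Beside these results, the summed microglia markers had a median of 2048 in sSC cells and 3449 in dSC cells, and 13 of 14 such markers had a lower clone mean in sSC. Their part in the tissue values was not tested.

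**Figure D5:**
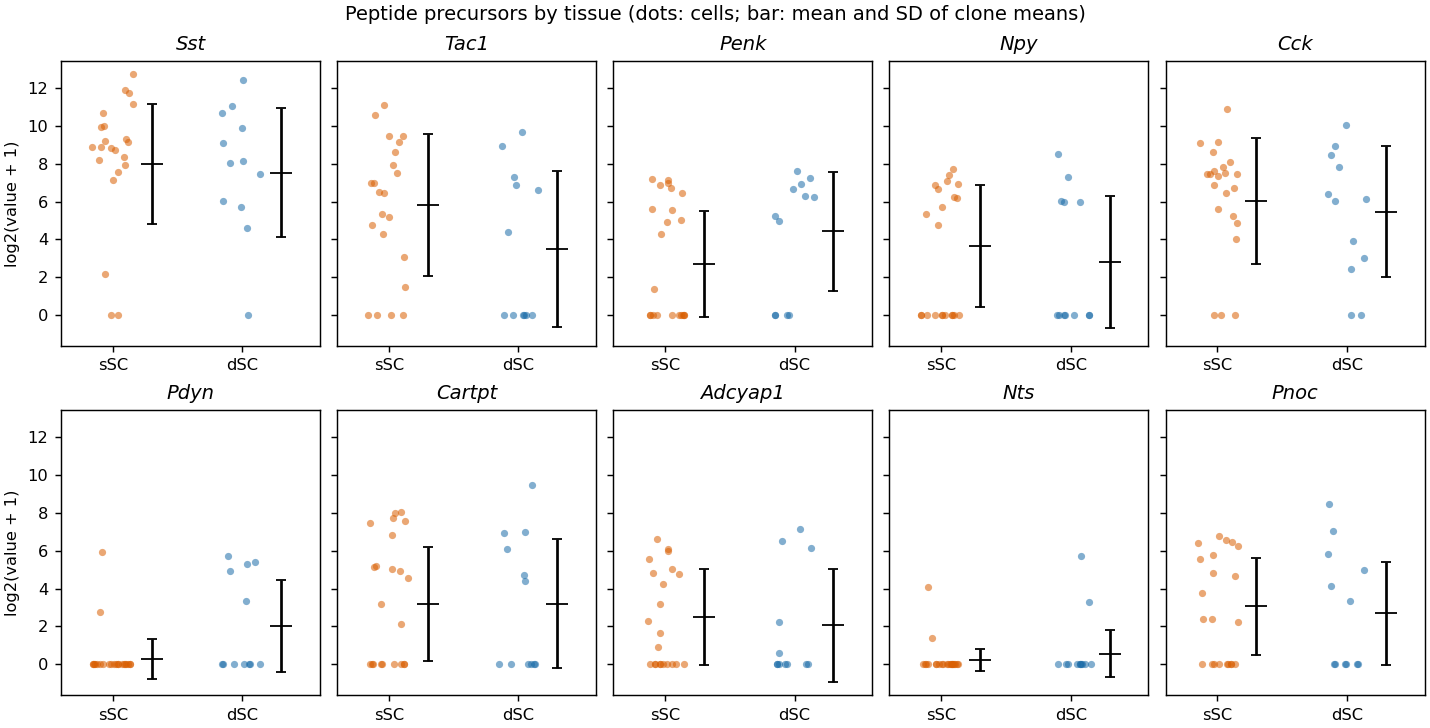
Level of each precursor in single cells of sSC (left) and dSC (right), as log2(value + 1). Bars give the mean and SD of the clone means, 16 in sSC and 11 in dSC, and PAG cells are not drawn. The tissues overlap for every gene, and Tac1 has the largest gap between means.

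The 2 PAG cells differed from each other. D.2 had Sst at 7033, Penk at 419, Pnoc at 379, Cartpt at 25.1, Tac1 at 7.58 and Gad1 at 964. H.2 had Tac1 at 3750, Adcyap1 at 83.8, Sst at 51.5, Cck at 10.7 and Slc17a6 at 278. They hold the highest single values of Sst, Penk and Pnoc on one side and of Tac1 on the other. With 1 cell each from 2 clones, no test against the colliculus was made.

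The driver comparison set Fz10-CreER against Sox2-CreER clones in sSC (11 and 5 clone means). None of the 8 tested precursors was called, where 0% of 14320 genes passed an adjusted p of 0.05 and 4.1% had an unadjusted p under 0.05. Cck had the largest difference, with 0 to 562 (median 172) in 15 Fz10-CreER cells and 15.4 to 1899 (median 115) in 7 Sox2-CreER cells. By cell median it was higher in Fz10-CreER, where 3 cells were listed at 0, but by clone means on the log2 scale it was lower. The clone means were 5.35 ± 3.61 in Fz10-CreER (SD, n = 11) and 7.58 ± 2.20 in Sox2-CreER (SD, n = 5), a log2 difference of -2.24 (SE 1.48, limma adjusted p = 1.00). For Sst they were 8.62 ± 3.20 and 6.63 ± 2.98, a difference of 1.99 (SE 1.38, limma adjusted p = 1.00). Single clones moved both: the Sst difference was 0.88 without clone H and 2.85 without clone A (limma p = 0.0116, adjusted p = 1.00), and that of Cck was -1.41 without H and -2.93 without N. The other 6 lay between -0.50 for Pnoc and 1.51 for Npy, with SE from 1.28 to 1.67, and the median of all genes was -0.38. In dSC, Tac1 was detected at 1 or above by 2 of 7 cells of Fz10-CreER clones and 4 of 5 cells of Sox2-CreER clones, without a test. Cck was at 1 or above in 6 of 7 and 4 of 5 of these cells.

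Genes of peptide maturation varied in how many cells held them. All 16 processing and dense-core vesicle genes passed the filter, and none was called between tissues, between drivers or among clones. Scg5, the chaperone of the convertase PCSK2, had a median of 2917, Cpe, the carboxypeptidase E gene, 1365, Pcsk1n, which encodes the inhibitor proSAAS, 572, and the granin Scg2 382. The first 3 were at 100 or more in 36 of 36 cells, including the 3 cells in which no precursor reached 100. The convertase genes were lower, with Pcsk2 at a median of 59.2 and listed at 0 in 3 cells, and Pcsk1 at a median of 2.92 and listed at 0 in 17.

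Receptors for the peptides were sparse. Of 22 genes, 11 passed the filter and none was called in any of the 3 fits. The highest medians were 71.0 for Ntsr2, a neurotensin receptor also used as a marker of astrocytes, 21.98 for Oprl1, the nociceptin receptor, 13.9 for Adcyap1r1, the PACAP receptor, and 6.24 for Oprm1, the mu opioid receptor. Sstr1, a somatostatin receptor, was at 0 in 24 cells and at 100 or more in 7, with 2601 in J.2. Among other neurochemical markers, Pvalb had a median of 570, Calb2 139 and Calb1 101, and none of the 5 tested of 7 was called.

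A further 33 precursors were looked up, and 11 of them reached 100 in any cell. These were Nppc (7 cells, highest 729.9), Calca (5 cells, highest 208), Npb (3 cells, highest 5818 in I.1), Nmb, Pmch and Nppa (2 cells each), and Vip, Crh, Gal, Sct and Npw (1 cell each). Vip had 608 in Q.1, Crh 351 in U.2, Gal 316 in J.2, Sct 342 in R.1 and Npw 1328 in B.1. Nppa had 2108 in D.2, the PAG cell with the highest Sst. Nmb, Pmch and Nppa (highest 419.8, 249 and 2108) each overlap another gene, Sec11a on the same strand for Nmb and genes on the opposite strand for the other two, so their values are uncertain. Agrp had the highest median of the list (21.1) and overlaps 7 genes, among them Ripor1 and Ctcf on the opposite strand, so its value is uncertain. Of the 33, 5 to 9 passed the filter in each fit and none was called.

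The genes whose levels were most like each precursor over the 36 cells were found by Pearson's r of log2(value + 1) among 12336 protein-coding genes. Adcyap1 was most like Nsun5 (0.785), Pwp2 (0.643) and Ebf1 (0.610), the last a transcription factor of developing neurons and B cells. Penk was most like Tiam2 (0.752), Plcl1 (0.709) and Lsg1 (0.708). Cck had Smim11 (0.663), Sema6d (0.663), a semaphorin, and Nphs1 (0.601). Tac1 had Rnf166 (0.638), Pcmtd1 (0.559) and Lta4h (0.545), and Pnoc had Zbed3 (0.639), Sult2b1 (0.638) and Ptrh2 (0.635). Cartpt had Acad9 (0.623), Wdsub1 (0.621) and Cblb (0.607), and Npy had Zfp874a (0.604), Sult2b1 (0.596) and Pdp2 (0.595). Sst had the lowest of these values, 0.511 for Snrnp27, 0.488 for Cald1 and 0.486 for Efcab2. None of these 8 precursors was among the nearest 3 of another. Pdyn and Nts fell below the filter, so they could not appear. Each value is among the highest of 12336 over cells that share depth and clone, and is given as a description.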

How the data were processed

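Per the labels' protocols, polyadenylated RNA of single neurons was turned into libraries with a SMART-Seq Single Cell PLUS kit. The submitters' processing notes name STAR 2.7.9a, R 4.0.3 and GRCm39. How reads were counted, with which annotation and whether by strand, is not given in the sources used here. Values as deposited are a normalised signal for each gene in each cell, TPM of exon plus intron in the authors' words. Symbols were matched by gene identifier to an annotation of an older build for 52083 of 55359 genes, from which overlaps of genes were also taken.

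Genes reaching 1 in 25% or more of the cells compared were fitted as log2(value + 1) by limma 3.58.1 (R 4.3.3, eBayes with robust moderation and a trend), and p-values were adjusted by Benjamini-Hochberg over all genes with a threshold of 0.05. The log scale understates differences of low genes. Siblings from 1 tissue were averaged. Clones may share an animal, so p-values cover the spread between clones, and cells of a clone come from 1 animal, which pairs sSC with dSC in 9 clones. Scripts were tested on simulated data. Relations between genes were computed in Python 3.11.15.

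The 10 genes and all lists were chosen with earlier results of these data known. Besides them, the text names up to 4 genes of highest median per list, further precursors at 100 or more, and the 3 genes most alike. The convertases, Sstr1, the defining markers of other cell types and the overlapping genes were named outside this rule, after their values were seen. Alternatives were the pseudocount, filter, scaling, moderation, a covariate for genes captured, a clone block and clones left out.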

Additional observations from a re-analysis of the deposited data

Results flagged for a closer look

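In each tissue and driver group of 4 to 10 clones, the highest and lowest clone mean of each precursor was set against the rest, and 7 of 29 gene and group combinations held a clone far from the others. The limit used marks about 1 in 20 groups by chance where values spread evenly, but in 5 of the 7 all other clones were at 0, so that any single clone above 0 was marked and that rate does not apply. Values are log2(value + 1). In dSC Fz10-CreER clones, Cck was 0 in clone J, below the other clones, and Nts was 3.30 in clone C, above them. In dSC Sox2-CreER clones, clone O was high for Npy (3.01), Nts (2.86) and Pnoc (4.24), and clone Q for Adcyap1 (7.13). In sSC Sox2-CreER clones, Nts was 1.38 in clone Q. In the 6 combinations with a high clone the other clones were at or near 0. Clone O had 2 cells in dSC, and 1 of them, O.2, carried the Npy, Nts and Pnoc values.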

How the results depend on the processing

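None of the 8 precursors tested was called under any alternative (limma adjusted p from 0.429 to 1.00). This covers 296 results, each of 1 gene under 1 alternative. The driver fit without clone B was counted again among the clones left out singly. The counts below are over all genes. Between tissues the count of called genes was 1 with a pseudocount of 10, without clone B, and with clone as a block, each against 0 as reported. Between drivers it was 1 with a pseudocount of 10, and leaving out 1 clone at a time gave 0 to 5 (1 without F, 5 without H). For the clone effect it was 6 with a pseudocount of 0.1, 60 with no filter and 1 without trend and robust, against 3. Small differences changed sign: Cartpt between tissues was 0.18 with a pseudocount of 0.1, 0.36 without clone B and 0.74 with genes captured as a covariate. Cck between tissues was -1.07 with the block. Tac1 between drivers was 0.036, 0.25 and 0.43 under the same 3 alternatives as Cartpt, and Cartpt between drivers was -0.0059 with a pseudocount of 0.1. Leaving out 1 clone gave driver differences of -1.83 to 0.54 for Tac1, -0.59 to 0.70 for Cartpt and -1.35 to 0.26 for Pnoc. The cause was not tested. The number of precursors per cell was 4.78 at a value of 10 or more and 5.36 at 1 or more. The depth of the libraries is unknown, so a precursor listed at 0 may have been missed.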
